A study of Mus musculus with 12 samples.

Results

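The L-GMP fraction of mouse MLL-AF9 leukemia is sorted by 3 surface antigens, CD34, c-Kit and CD16/32, and the RNA of the 4 genes behind them was followed here. The 4 genes, Cd34, Kit, Fcgr3 and Fcgr2b, were taken by symbol, and each had 1 probe set with no other gene's symbol, out of 22180 genes named in this way on the array. All 4 lay above the limit set for dim genes and were among the 17749 genes tested. CD16/32 is the product of 2 genes, since a common antibody epitope lies on both the CD16 receptor (Fcgr3) and the CD32 receptor (Fcgr2b).

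L-GMP stands for leukemic granulocyte-macrophage progenitors, the fraction that the submitters equate with leukemia-initiating cells. The arrays compared marrow cells from lethally irradiated recipients (10 Gy), each given 50000 stem and progenitor cells that expressed MLL-AF9, all on the C57BL/6J background. The donor cells were either AMPKfl/fl, with floxed but intact alleles of the energy-sensing kinase AMPK (wild type, WT), or AMPKΔ/Δ, with the alleles deleted (knockout, KO). Per genotype, 3 samples of whole leukemia (all GFP+ cells) and 3 of L-GMP (GFP+, lineage-negative, c-Kit+, CD16/32+, CD34+) were hybridised, 5000 sorted cells each, taken when the recipient developed leukemia. All groups therefore share the fusion oncogene, the transplantation and the irradiation. The labels do not name the AMPK subunit, the Cre driver, the age of the mice or the antibodies of the lineage panel. They also do not say that the 3 samples of a group come from separate mice, and where they do not, the tests reflect sample-to-sample spread that can be partly technical.

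CD34 is a sialomucin, a heavily glycosylated membrane protein of blood stem and progenitor cells and of vessel endothelium, and it is lost as myeloid cells mature. KIT is the receptor tyrosine kinase for stem cell factor; it is found on stem cells, early progenitors, mast cells and early erythroid cells. The low-affinity Fc gamma receptors bind immune complexes of IgG and stay on mature myeloid cells, FcγRIII as an activating receptor that signals through the Fc receptor gamma chain, and FcγRIIB as an inhibitory receptor that recruits the phosphatase SHIP-1. In normal marrow the same 3 antigens separate granulocyte-macrophage progenitors from other myeloid progenitors.

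Values are log2 of the deposited intensity, so that a difference of 1 is a change by a factor of 2, and levels were compared only within a gene, since probe sets differ in brightness. Differences come from limma, a linear model fitted to all genes with a shared estimate of the spread; a gene was called when its p, adjusted by Benjamini and Hochberg over 17749 genes, was under 0.05. The smallest two-sided p that an exact permutation test can reach with 3 arrays a group is 0.1. The number of arrays limits the precision: the median standard error of a difference was 0.15. On the first principal component KO whole leukemia array 2 had a score of 67.4, far from the other 11 arrays (-24.2 to 18.5), and on the second KO L-GMP array 2 had a score of -41.3, against -19.6 to 21.8 for the rest. Prkaa1, which encodes a catalytic AMPK subunit, ranged from 6.95 to 7.45 in KO and from 7.72 to 8.69 in WT whole leukemia, and from 6.83 to 7.31 in KO and 7.99 to 8.33 in WT L-GMP, so that the genotypes did not overlap in either population; KO L-GMP lay entirely below WT L-GMP for 3.66% of genes and for 0 of the 4 gate genes. Prkaa2, which encodes the other catalytic subunit, lay near background in every group, at group means of 4.76 to 4.88.

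Cd34 was the gate gene that varied most. In whole leukemia it measured 8.48, 9.38 and 8.35 in WT arrays 1, 2 and 3, and 5.54, 6.65 and 7.05 in KO arrays 1, 2 and 3. In L-GMP it measured 9.67, 10.05 and 9.57 in the WT and 9.45, 9.9 and 9.66 in the KO. The 6 L-GMP arrays were all above the 6 whole leukemia arrays, and the 3 KO whole leukemia arrays were all below the rest. Group means were ordered WT L-GMP (9.76 ± 0.25, SD, n = 3), KO L-GMP (9.67 ± 0.22), WT whole leukemia (8.74 ± 0.56) and KO whole leukemia (6.41 ± 0.78). Of the neighbours in this order, the ranges of the 2 L-GMP groups overlapped and those of the other neighbours did not. On the linear scale the KO whole leukemia arrays read 46.5, 101 and 133 intensity units and the WT whole leukemia arrays 357, 666 and 326.

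**Figure D1:**
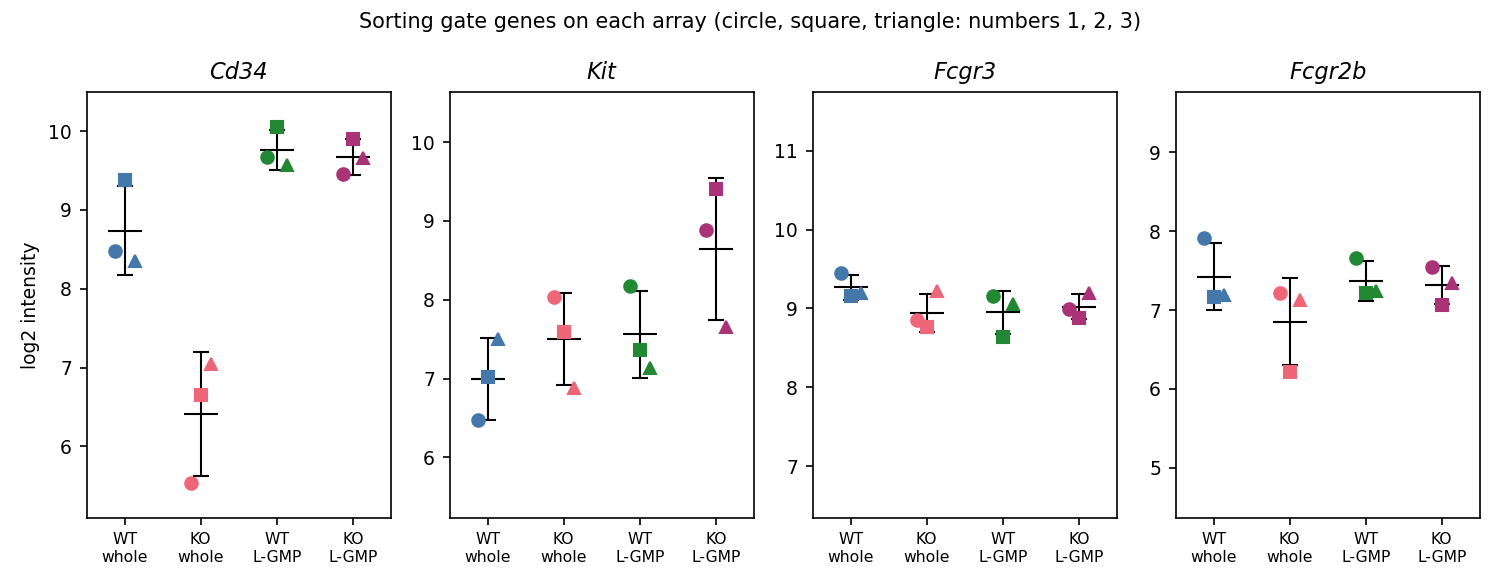
Log2 intensity of Cd34, Kit, Fcgr3 and Fcgr2b on each of the 12 arrays, by genotype and population; points are arrays, the horizontal bar is the group mean and the error bar 1 SD (n = 3), and each panel spans the same number of log2 units. Cd34 separates KO whole leukemia (5.54 to 7.05) from WT whole leukemia (8.35 to 9.38), while Fcgr3 stays between 8.64 and 9.45 in all groups.

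The comparison of KO with WT whole leukemia asks whether bulk leukemia without AMPK differs in these genes; no gate on their products was applied there. Cd34 differed by -2.32 (SE 0.37, 95% interval -3.15 to -1.5, 0.2-fold), lower in 3 of 3 KO arrays. By limma the adjusted p was 0.478, and 0 of the 4 gate genes were called, against 0% of all genes. By unadjusted p (8.24e-05 in limma) Cd34 stood in place 3 of 17749 and was the 1 gate gene of 4 under 0.05, against 5.97% of all genes (1059 genes). KO arrays lay entirely below WT arrays for 5.73% of all genes. The exact permutation test gave p = 0.1, the smallest this design allows. In these bulk samples fewer cells with Cd34 RNA and less Cd34 RNA per cell cannot be told apart.

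Leaving out any single array kept the Cd34 difference between -2.64 (without KO whole leukemia array 3) and -1.88 (without KO whole leukemia array 1), at adjusted p-values by limma of 0.141 to 0.978. Without KO whole leukemia array 2, the array that stood apart, it was -2.44. The difference was as large without that array.

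Markers of mature cells and of progenitors also differed between these arrays. KO whole leukemia arrays 1, 2 and 3 had mean log2 levels of 5.15, 9.07 and 5.87 over 9 erythroid genes, against 5.09 to 5.23 in the WT arrays. Over 12 neutrophil genes they had 8.78, 11.5 and 10.1, against 7.86, 7.62 and 10.14 in WT arrays 1, 2 and 3. Array 1, with the lowest Cd34 level of all 12 arrays (5.54), had an erythroid mean within the WT range. Its neutrophil mean lay above those of WT arrays 1 and 2 and below that of WT array 3. By gene, 12 of 12 neutrophil genes had higher means in the KO, with a median difference of 1.58 against 0 over all genes. For the erythroid genes it was 9 of 9, with a median of 1.66. Over 11 monocyte and macrophage genes the KO arrays had means of 7.29 to 8.03 and the WT arrays 8.52 to 9.01, without overlap; 11 of 11 of these genes had lower means in the KO, with a median difference of -1.0 against 0 over all genes. Without KO array 2 the median was -0.79, still with 11 of 11 lower. Over 8 stem and progenitor genes, KO arrays 1, 2 and 3 had means of 6.27, 5.85 and 6.4. The WT arrays had 6.6 to 6.78, again without overlap. Of these genes 5 had lower and 3 had higher means in the KO, with a median difference of -0.74 against 0 over all genes. Over 10 granulocyte-macrophage progenitor genes the means were 9.9, 8.59 and 9.27 in KO arrays 1, 2 and 3. The WT arrays had 8.63, 8.77 and 9.25, so these overlapped. Here 6 genes had higher and 4 had lower means in the KO, with a median difference of 0.26. In L-GMP 11 of 11 monocyte and macrophage genes also had lower means in the KO, with a median difference of -0.65 against 0.02 over all genes. The part of any of these cell types in the Cd34 difference in whole leukemia was not tested.

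**Figure D2:**
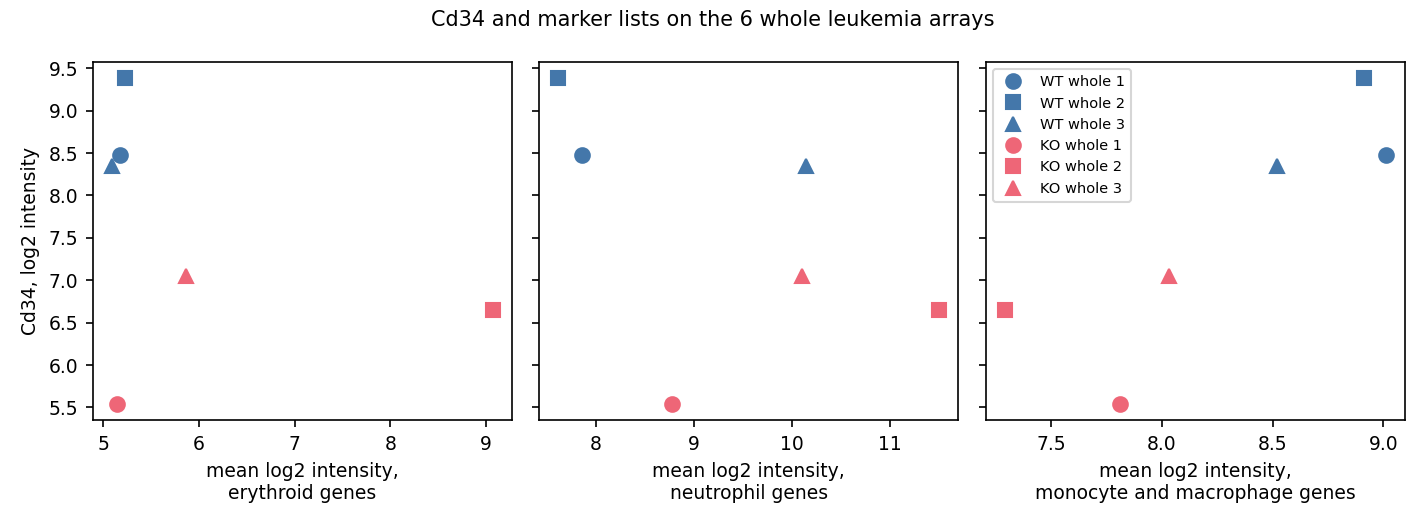
Cd34 log2 intensity (vertical axis) against the mean log2 intensity of 9 erythroid, 12 neutrophil and 11 monocyte and macrophage genes (horizontal axes) on the 6 whole leukemia arrays; each point is an array. KO array 2 is highest in erythroid (9.07) and neutrophil genes (11.5). KO array 1, lowest in Cd34 (5.54), has 5.15 and 8.78.

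In L-GMP, where each sorted cell of either genotype had to carry the CD34 protein, Cd34 differed between KO and WT by -0.09 (SE 0.37, 95% interval -0.92 to 0.73; limma adjusted p = 1). The gate itself can set this likeness. The interval holds differences as large as 0.92 log2 units below and 0.73 above the WT, and the sign turned without KO L-GMP array 1 (0.02) or WT L-GMP array 2 (0.05). Here 0 of the 4 gate genes were called, against 0.00563% of all genes (1 gene, the unnamed transcript 1700080G11Rik). By unadjusted p under 0.05 it was 1 of the 4 (Kit), against 4.13% of all genes.

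L-GMP against whole leukemia checks the gate at the RNA level, and is no independent finding, since the sort used the encoded proteins. Cd34 was higher in L-GMP by 1.03 in the WT (SE 0.37, 95% interval 0.2 to 1.85, 2.04-fold) and by 3.26 in the KO (SE 0.37, 95% interval 2.43 to 4.08, 9.55-fold). In the KO this was the gene of lowest p (4.19e-06) among 17749, with a limma adjusted p of 0.0743, just outside the threshold; in the WT the adjusted p was 1. L-GMP arrays lay entirely above whole leukemia arrays for 4.89% of genes in the WT and 5.49% in the KO. Gate genes called numbered 0 of 4 in both, against 0% of all genes in both. By unadjusted p under 0.05 it was 1 of 4 in the WT (Cd34), against 2.5% of all genes, and 2 of 4 in the KO (Cd34 and Kit), against 7.39%. The KO difference passed under a trended and robust variance (adjusted p = 0.0177), with the dimmer 50% of probe sets left out (0.0302), with 16 added to each value before the log (0.0471) and without KO whole leukemia array 1 (0.0296), all by limma. It did not pass under 8 of 12 alternatives or in 11 of 12 fits with an array left out, where the limma adjusted p reached 0.907 (the 2 groups fitted alone) and 0.561 (without KO L-GMP array 3).

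Within the WT, where arrays of equal number deviated together, the L-GMP array exceeded its same-number whole leukemia array in Cd34 by 1.19, 0.67 and 1.22. In the KO, where such pairing is uncertain, the same subtraction gave 3.91, 3.25 and 2.61. The labels state no pairing in either genotype. The difference of the differences was 2.23 (SE 0.53, 95% interval 1.06 to 3.4), which put Cd34 in place 7 of 17749 by p (0.00159) and did not pass (limma adjusted p = 1; 0% of genes called). By unadjusted p under 0.05 it was the 1 gate gene of 4, against 2.06% of all genes. This interaction, the KO comparison of populations and the genotype comparison in whole leukemia all use the same 3 KO whole leukemia arrays, so they are not independent of each other.

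**Figure D3:**
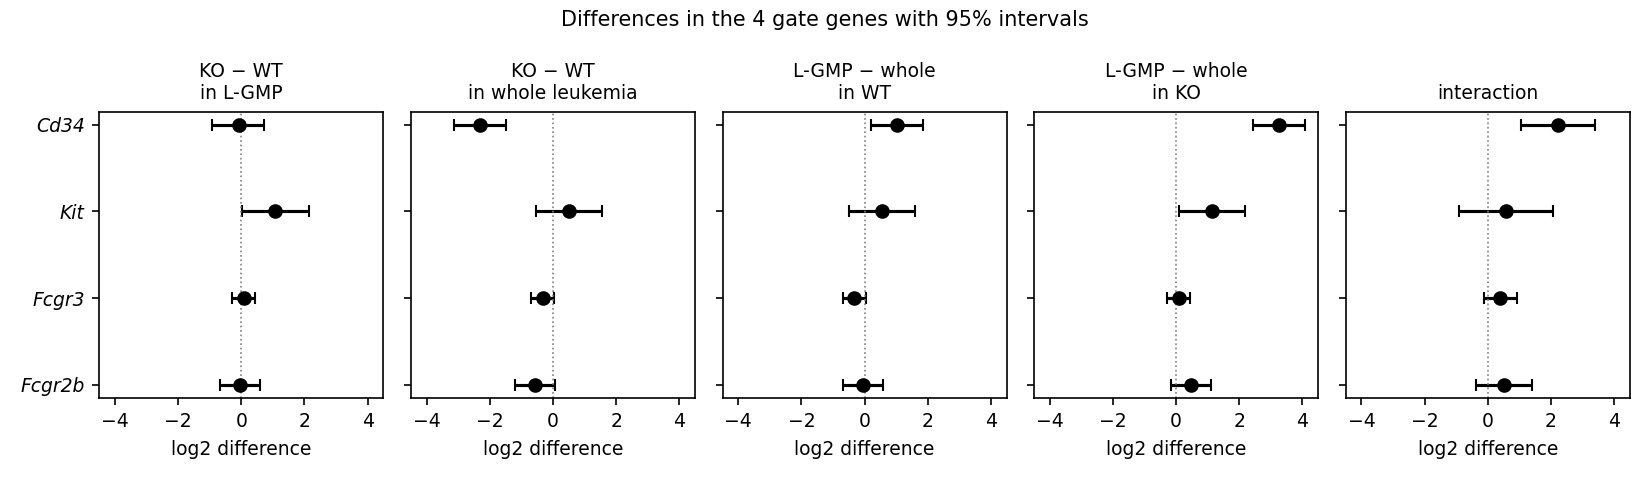
Log2 differences of the 4 gate genes in the 5 comparisons, as points with 95% intervals from the limma fit on 12 arrays; the dotted line marks 0 and the interaction is the KO minus WT difference in L-GMP less that in whole leukemia. Cd34 has the widest departures, -2.32 in whole leukemia and 3.26 between populations in the KO, and the Fcgr3 intervals all include 0.

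The Cd34 and Kit promoters are shown because these 2 genes varied most between groups while their products are gated together. Each sequence is the 250 bases before the annotated start, from RefSeq on GRCm38.p6, 5′ to 3′ on the gene's strand, Cd34 at chr1:194938571-194938820 (plus strand) and Kit at chr5:75574737-75574986 (plus strand, the first of 2 listed starts). Capitals mark GATA, the core of sites bound by GATA factors, and GGAA, the core of ETS factor sites, on either strand (TATC and TTCC on the other).
Cd34: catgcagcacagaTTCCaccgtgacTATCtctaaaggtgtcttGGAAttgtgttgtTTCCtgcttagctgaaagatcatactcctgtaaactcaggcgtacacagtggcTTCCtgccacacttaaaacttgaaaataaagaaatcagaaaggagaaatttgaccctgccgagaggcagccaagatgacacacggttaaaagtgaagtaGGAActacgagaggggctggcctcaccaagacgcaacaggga
Kit: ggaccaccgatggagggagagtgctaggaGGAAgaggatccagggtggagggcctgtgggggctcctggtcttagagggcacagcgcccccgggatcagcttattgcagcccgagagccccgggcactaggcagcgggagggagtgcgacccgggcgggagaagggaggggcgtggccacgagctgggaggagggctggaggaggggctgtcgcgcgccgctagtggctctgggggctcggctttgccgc
The Cd34 window held 1 GATA and 5 GGAA matches, none overlapping, and the Kit window held 0 and 1. Of 27025 promoter windows of 250 bases, 54.1% held GATA and 93.4% held GGAA, so a match is common and describes the letters only.

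Kit, the receptor gene, varied more between arrays of a group than Cd34 did between L-GMP arrays. It measured 6.47, 7.02 and 7.5 in WT whole leukemia arrays 1, 2 and 3, and 8.04, 7.59 and 6.88 in the KO arrays. In L-GMP it measured 8.18, 7.36 and 7.14 in the WT and 8.88, 9.4 and 7.65 in the KO. Neighbouring groups overlapped throughout the order KO L-GMP (8.64 ± 0.90, SD, n = 3), WT L-GMP (7.56 ± 0.55), KO whole leukemia (7.5 ± 0.58) and WT whole leukemia (7.0 ± 0.52). Only KO L-GMP arrays 1 and 2 stood above every array of the other groups.

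Kit was higher in KO than in WT L-GMP by 1.08 (SE 0.47, 95% interval 0.03 to 2.14, 2.12-fold), with 2 of 3 KO arrays above all WT arrays, and did not pass (limma adjusted p = 1). Without KO L-GMP array 2 the difference was 0.7 and without KO L-GMP array 3 it was 1.58. In whole leukemia the difference was 0.50 (SE 0.47, 95% interval -0.55 to 1.56; limma adjusted p = 0.893), and 0.24 without WT array 1 or without KO array 1. Although c-Kit protein was required in the gate, the Kit RNA levels of the populations overlapped. L-GMP exceeded whole leukemia by 0.56 in the WT (SE 0.47, 95% interval -0.49 to 1.61; limma adjusted p = 1) and by 1.14 in the KO (SE 0.47, 95% interval 0.09 to 2.19; limma adjusted p = 0.671). With an array left out these ranged from 0.25 (without WT L-GMP array 1) to 0.81 (without WT whole leukemia array 3) and from 0.76 (without KO L-GMP array 2) to 1.64 (without KO L-GMP array 3). Same-number subtraction gave 1.71, 0.33 and -0.36 in the WT. In the KO, where such pairing is uncertain, it gave 0.84, 1.81 and 0.77. The interaction was 0.58 (SE 0.67, 95% interval -0.91 to 2.07; limma adjusted p = 1), and 0.2 without KO L-GMP array 2 or 1.08 without KO L-GMP array 3.

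KO L-GMP array 2, the highest in Kit, was the highest of the 12 arrays in 3 of 5 eosinophil genes (Prg2, Epx and Prg3) and in 3 of 6 mast cell and basophil genes (Ms4a2, Cpa3 and Mcpt8), but not in Ear6, Siglecf, Tpsab1, Hdc or Il4. Prg2, which encodes eosinophil major basic protein, measured 8.85, 11.92 and 5.57 in KO L-GMP arrays 1, 2 and 3, against 5.59 to 6.36 in WT L-GMP. Cpa3, the mast cell carboxypeptidase gene, measured 4.73, 8.41 and 4.75 in the KO against 4.69 to 6.24 in the WT. Over 5 eosinophil genes the L-GMP means were 6.24, 7.84 and 5.59 in the KO and 5.51, 5.25 and 5.43 in the WT; over 6 mast cell and basophil genes they were 5.71, 6.95 and 5.62 against 6.08, 5.87 and 5.6. The mast cell genes Fcer1a, Mcpt4, Tpsb2 and Cma1 had means over the 12 arrays under the limit for dim genes (4.72). Their highest single values were 5.04, 4.47, 4.79 and 4.78. Fcer1a had a mean of 4.61 ± 0.38 (SD) in KO L-GMP, against 4.32 to 4.39 in the other groups. The part of such cells in the Kit difference was not tested.

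Fcgr3 was the steadiest of the 4. It measured 9.45, 9.16 and 9.2 in WT whole leukemia arrays 1, 2 and 3, 8.85, 8.76 and 9.22 in the KO, 9.16, 8.64 and 9.05 in WT L-GMP and 8.99, 8.88 and 9.19 in KO L-GMP. All 4 groups overlapped with a neighbour in the order WT whole leukemia (9.27 ± 0.16, SD, n = 3), KO L-GMP (9.02 ± 0.16), WT L-GMP (8.95 ± 0.27) and KO whole leukemia (8.94 ± 0.25). The KO differed from the WT by 0.07 in L-GMP (SE 0.17, 95% interval -0.3 to 0.44) and by -0.33 in whole leukemia (SE 0.17, 95% interval -0.7 to 0.04), at limma adjusted p-values of 1 and 0.829.

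For Fcgr3 the sorted fraction overlapped with whole leukemia. L-GMP differed from whole leukemia by -0.32 in the WT (SE 0.17, 95% interval -0.69 to 0.05) and by 0.08 in the KO (SE 0.17, 95% interval -0.29 to 0.45), at limma adjusted p-values of 1 and 0.944. In the WT each L-GMP array was below its same-number whole leukemia array, by -0.28, -0.51 and -0.15. The interaction was 0.4 (SE 0.24, 95% interval -0.13 to 0.92; limma adjusted p = 1). Without WT L-GMP array 2 (8.64) the WT difference was -0.16 and the interaction 0.24.

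Fcgr2b, the inhibitory receptor gene, measured 7.91, 7.17 and 7.19 in WT whole leukemia arrays 1, 2 and 3 and 7.21, 6.22 and 7.13 in the KO. In L-GMP it measured 7.66, 7.21 and 7.24 in the WT and 7.55, 7.06 and 7.34 in the KO. The groups overlapped, and KO whole leukemia array 2 was the lowest of the 12. Group means were 7.42 ± 0.42 (SD, n = 3) in WT whole leukemia, 7.37 ± 0.25 in WT L-GMP, 7.32 ± 0.25 in KO L-GMP and 6.85 ± 0.55 in KO whole leukemia.

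Between genotypes Fcgr2b differed by -0.05 in L-GMP (SE 0.29, 95% interval -0.69 to 0.58; limma adjusted p = 1) and by -0.57 in whole leukemia (SE 0.29, 95% interval -1.2 to 0.07; limma adjusted p = 0.829). Without KO whole leukemia array 2 the latter was -0.25. Between populations it differed by -0.05 in the WT (SE 0.29, 95% interval -0.69 to 0.58; limma adjusted p = 1) and by 0.46 in the KO (SE 0.29, 95% interval -0.17 to 1.1; limma adjusted p = 0.712), with an interaction of 0.52 (SE 0.4, 95% interval -0.38 to 1.41; limma adjusted p = 1). Without KO whole leukemia array 2 (6.22) these were 0.15 in the KO and 0.2 for the interaction, which was 0.27 without WT whole leukemia array 1. B cells also carry FcγRIIB. Their gene Ms4a1 (CD20) lay at 4.34 to 4.69 on all 12 arrays, under the limit for dim genes. The mean over 7 tested B cell genes ranged from 5.32 to 5.65. The brightest of the 7, Cd79b, measured 6.8 to 8.4, and Cd79a measured 4.86 to 6.26. The part of B cells in the Fcgr2b values was not tested. Fcgr2b, Fcgr4 and Fcgr3 are consecutive protein-coding genes on mouse chromosome 1, and the extracellular parts of the FcγRIIB and FcγRIII receptors are closely related, so how far these 2 probe sets separate the genes is uncertain.

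The 4 genes did not move as a unit. Over the 12 arrays Fcgr3 and Fcgr2b had a Pearson r of 0.61 (Spearman rho 0.35), and 0.64 for deviations from group means. Cd34 and Kit had an r of 0.2 (rho 0.29) and -0.3 for deviations, and Kit and Fcgr3 one of -0.44 (rho -0.47) and -0.44. These are descriptions over 12 arrays that share groups. WT arrays of equal number were taken as pairs, which the labels do not state.

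Genes whose pattern was most like that of each gate gene were ranked by Pearson r over the 12 arrays, with no test. For Cd34 these were Rad9a of the DNA damage clamp (r = 0.87, rho = 0.48), the chromatin remodelling gene Arid1b (0.87, 0.45), the progenitor transcription factor gene Gata2 (0.86, 0.89) and Tbc1d17 (0.85, 0.69). For deviations from group means r was lower, at 0.4, 0.62, 0.63 and 0.67 in the same order, so differences between groups carry part of this likeness. Without the 2 arrays farthest from the Cd34 median, r was 0.85 for Gata2 and 0.56 to 0.67 for the other genes named. Gata2 measured 5.17, 5.54 and 5.29 in KO whole leukemia arrays 1, 2 and 3 and 5.53, 6.24 and 5.76 in the WT arrays. For Kit they were Sipa1l1, Man1a, the eosinophil granule gene Prg3 and Txndc12, at r = 0.88 to 0.9, and at 0.64 to 0.79 without the 2 farthest arrays. For Fcgr3 they were Tmem86a, Apob, Sbk2 and the endocytic receptor gene Lrp1 (r = 0.88 to 0.91, and 0.84 to 0.88 without the 2 farthest arrays). Of these, Apob (4.71 to 5.21) and Sbk2 (4.97 to 5.27) lay near the limit for dim genes and varied over a narrow span. For Fcgr2b they were Zfhx2, the leukosialin gene Spn, the integrin gene Itga5 and Mcmbp (r = 0.91 to 0.93). Without the 2 arrays farthest from the Fcgr2b median r was 0.85 for Spn, 0.7 for Mcmbp and 0.6 for both Zfhx2 and Itga5. For deviations from group means r was 0.76 to 0.86 for the Kit genes, 0.85 to 0.98 for the Fcgr3 genes and 0.88 to 0.95 for the Fcgr2b genes.

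**Figure D4:**
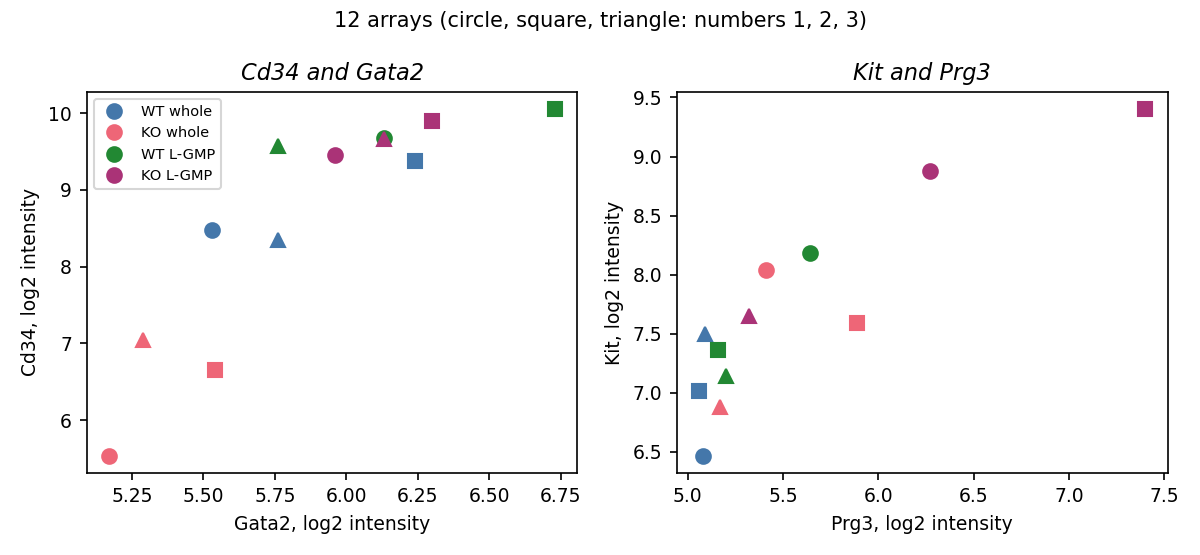
Cd34 against Gata2 and Kit against Prg3 on the 12 arrays, log2 intensity on both axes; each point is an array. KO whole leukemia lies lowest in Cd34 and at 5.17 to 5.54 in Gata2, and KO L-GMP array 2 lies highest in Kit (9.4) and Prg3 (7.4).

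Partners of the gate genes were described from lists of pathway genes, and 0 of their tested members were called in any of the 5 comparisons. Among the Fc gamma receptor genes, Fcer1g, the signalling chain of FcγRIII, had means of 10.8 to 11.34 in the 4 groups. Fcgr4, an activating receptor of mature myeloid cells, measured 6.88, 7.42 and 7.94 in KO whole leukemia and 6.88, 5.41 and 6.93 in KO L-GMP, a difference between populations of -1.0 (SE 0.47; limma adjusted p = 0.674). Fcgr1, the high-affinity receptor gene, stayed at 5.18 to 5.58. Of 12 tested genes of this list, 9 had lower means in KO than in WT whole leukemia, with a median of -0.16 against 0 over all genes, and 11 had lower means in L-GMP than in whole leukemia in the WT, with a median of -0.24 against 0.

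Kitl, the gene of the KIT ligand stem cell factor, lay at 4.47 to 4.70 on all arrays, under the limit for dim genes. Of the 19 tested genes of KIT signalling, 15 had lower means in KO than in WT whole leukemia, with a median of -0.10 against 0 over all genes; without KO whole leukemia array 2 it was 11 of 19, with a median of -0.11. Cblb, a ubiquitin ligase of receptor signalling, had the lowest p of the list: it measured 7.17, 7.28 and 8.02 in KO and 9.12, 8.88 and 8.18 in WT whole leukemia, a difference of -1.23 (SE 0.32; limma adjusted p = 0.653). The KO and WT arrays did not overlap, the nearest being 8.02 and 8.18. KO arrays lay entirely below WT arrays for 5.73% of all genes. In L-GMP 10 of the 19 had lower means in the KO, with a median of -0.03 against 0.02, and without KO L-GMP array 2 it was 8, with a median of 0.05. Of 9 transcription factor genes known to act at the Kit locus, 7 had higher means in KO than in WT L-GMP (median 0.11 against 0.02; 6 of 9 and 0.05 without KO L-GMP array 2), with Runx1 at 0.37 (SE 0.14) and Ldb1 at 0.47 (SE 0.19), both at a limma adjusted p of 1.

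Relatives of CD34, other sialomucins and selectins varied in both directions. Podxl, which encodes podocalyxin of the CD34 family, stayed at 4.67 to 4.93, and Emcn (endomucin) was under the limit for dim genes. Selplg, the selectin ligand PSGL-1, had a difference of -0.57 (SE 0.24) between KO and WT whole leukemia, Sele (E-selectin) one of -0.82 (SE 0.44) and Spn one of -0.50 (SE 0.27), at limma adjusted p-values of 0.827, 0.834 and 0.834. Prom1, which encodes the progenitor antigen CD133, went the other way at 0.76 (SE 0.52; limma adjusted p = 0.858). Of 9 tested genes 5 had lower means, with a median of -0.06 against 0. Among 15 tested surface genes used in other progenitor gates, 8 had higher and 7 lower means in KO whole leukemia (median 0.02 against 0); without KO array 2 it was 10 and 5. Flt3, the receptor gene of early progenitors, measured 5.52, 6.10 and 7.21 in the KO and 7.94, 9.45 and 8.22 in the WT. The difference was -2.26 (SE 0.69, limma adjusted p = 0.8). The genotypes did not overlap, as for 5.73% of all genes with the KO entirely lower. Cd93, an early progenitor surface gene, differed by -0.88 (SE 0.31) and Csf1r, the macrophage growth factor receptor gene, by -0.99 (SE 0.33), both at a limma adjusted p of 0.827. Differences of like size had the other sign for Csf3r, the granulocyte growth factor receptor gene (0.99, SE 0.39), and for Thy1 (0.68, SE 0.24), both also at a limma adjusted p of 0.827.

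The labelled fractions were checked against genes outside the 3 gated antigens. The gate was also lineage-negative with a panel that the labels do not name, so that lower Itgam, Ly6g and other mature-cell genes in L-GMP can be set by the sort. All 12 neutrophil genes had lower means in L-GMP than in whole leukemia in both genotypes, with medians of -1.16 in the WT and -2.56 in the KO (-1.78 without KO whole leukemia array 2). Among 12 tested genes of common lineage panels, 9 had lower means in L-GMP in each genotype. The medians were small, at -0.08 in the WT against 0 over all genes and -0.16 in the KO against 0.01. Several of these genes lay near the limit for dim genes, as Cd3e, Cd4 and Cd8a with group means of 4.77 to 5.23. Itgam (CD11b) differed by -1.05 in the WT (SE 0.65) and -1.61 in the KO (SE 0.65), and still measured 6.44 to 8.94 in L-GMP. The azurophil granule gene Elane, of granulocyte-macrophage progenitors, had means of 11.75 in L-GMP and 11.59 in whole leukemia in the WT, a difference of 0.16 (SE 0.42). In the KO the means were 12.21 and 11.58, a difference of 0.63 (SE 0.42) at a limma adjusted p of 0.728. The genes of lowest p in this list in the KO were Prtn3 (0.75, SE 0.3) and Ctsg (0.89, SE 0.45). Their limma adjusted p-values were 0.671 and 0.687. Of 10 such progenitor genes 7 had higher means in L-GMP in the WT (median 0.09 against 0) and 8 in the KO (median 0.5 against 0.01; 7 and 0.12 without KO whole leukemia array 2). None of these genes was called by limma.

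**Figure D5:**
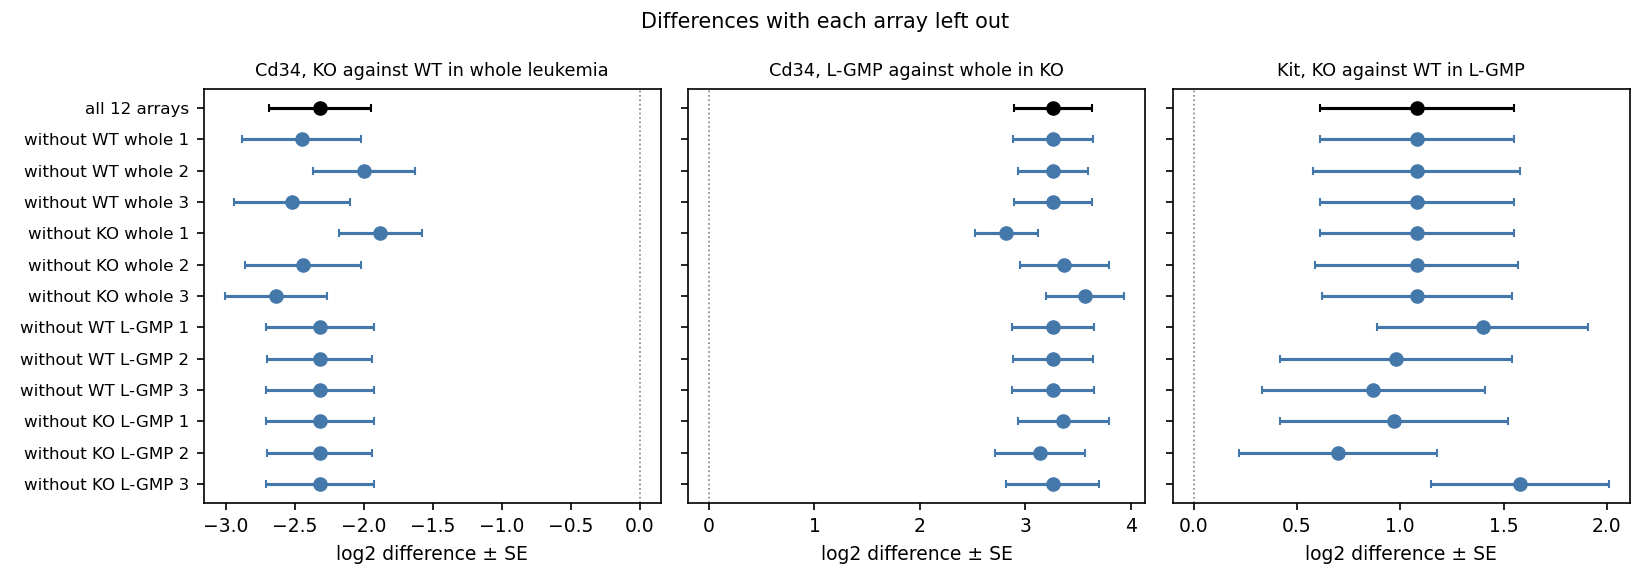
Cd34 in KO against WT whole leukemia, Cd34 in L-GMP against whole leukemia in the KO, and Kit in KO against WT L-GMP, as log2 differences with standard errors from the limma fit on all 12 arrays (black) and with each array left out (blue). The Cd34 differences keep to -2.64 to -1.88 and 2.82 to 3.57, and the Kit difference spans 0.7 to 1.58.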

How the data were processed

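The authors deposited a table of 33794 probe sets by 12 arrays in linear intensity (17.96 to 9108.2; array medians 36.9 to 39.3). How they corrected and normalized it is not stated in any source read here. Per the labels' protocols, cDNA came from NuGEN's Ovation Pico system and was biotinylated with its Encore module. Values were taken to log2 without further scaling. The platform annotation gave 23521 probe sets 1 symbol, 1814 several and 8459 none; a gene's values are those of its brightest single-symbol probe set on average. Genes with a mean under 4.72, the 25th percentile of probe sets, were left out (4431 genes). Groups were compared with limma 3.58.1 (statmod 1.5.0, R 4.3.3), with 1 mean per group over 12 arrays (8 residual and 2.36 prior degrees of freedom), without a block. The script was checked on simulated arrays. The members, lists and the rule for named genes (members, up to 3 list genes of lowest p, 4 genes of highest r) were chosen with earlier results of these data known; other list genes named for their role were picked after their values were seen. WT whole leukemia and L-GMP arrays of equal number had correlated deviations from group means (0.36, 0.62 and 0.3), so numbers were taken to pair WT samples. The labels do not say so. The errors, intervals and p-values given for the WT populations come from the fit without a block and do not use this pairing. A block changed no call there. Alternatives covered normalization, filter, probe sets, offset, variance, weights, samples, block and each array left out; list counts were also taken without each number 2 KO array, chosen after seeing the data.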

Additional observations from a re-analysis of the deposited data

How the results depend on the processing

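The direction of every Cd34 and Kit difference held under all alternatives, except Cd34 between genotypes in L-GMP, which ranged from -0.21 to 0.05 with an array left out. Among the small Fc receptor differences, array weights turned Fcgr2b between genotypes in L-GMP (0.15) and Fcgr3 between populations in the KO (-0.08), and leaving out both number 2 KO arrays, chosen after seeing the data, turned the former (0.08). With an array left out these ranged from -0.17 to 0.09 and from -0.02 to 0.22, Fcgr2b between populations in the WT from -0.2 to 0.19 and Fcgr3 between genotypes in L-GMP from -0.08 to 0.18. Genes called between genotypes in L-GMP numbered 1, but 0 without the filter, with the 2 groups alone and with the replicate number as a block, 2 with the mean of all probe sets or a trended and robust variance, 4 with array weights and 0 to 2 with an array left out. In whole leukemia the number was 0, 1 without both number 2 KO arrays and 0 to 1 with an array left out. Between populations in the KO it was 0, 1 with the lowest 50% left out or a trended and robust variance, 2 with 16 added and 2 with a random block by genotype and number, and 0 to 40 with an array left out (40 without KO whole leukemia array 1). Cd34 was the 1 gate gene called in each of these 4 settings, and 0 to 1 gate genes were called with an array left out; the cause was not tested. KO arrays of equal number had deviations correlated at 0.13, 0.09 and 0.43, the last within the range of the WT, so pairing there is uncertain. With the random block the adjusted p of Cd34 was 0.0261 by limma, and with the number as a fixed block 0.0519. Neither block changed the call of another gate gene. Depth cannot be given for arrays; all 4 genes lay above the limit for dim genes on every array.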

Other observations

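A second probe set, which the annotation gives to both Cd34 and Gm16897 and which was therefore not used, measured 5.17, 5.8 and 5.29 in WT and 4.9, 4.77 and 5.22 in KO whole leukemia arrays 1, 2 and 3, and 5.72, 6.2 and 5.9 in WT and 5.96, 6.05 and 5.92 in KO L-GMP. Its lowest 2 arrays were KO whole leukemia arrays 1 and 2, and 5 of the 6 L-GMP arrays were above every whole leukemia array. The signal cannot be assigned to either gene.

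Mcpt8, a basophil protease gene, measured 8.66, 8.88 and 8.49 in WT and 8.4, 8.97 and 8.7 in KO L-GMP. In whole leukemia it measured 8.14, 8.31 and 7.94 in the WT and 8.32, 6.86 and 8.61 in the KO. The WT populations did not overlap and the KO populations did. In the WT, L-GMP lay entirely above whole leukemia for 4.89% of all genes. Gata1, an erythroid and mast cell transcription factor gene, was at 6.76 in KO whole leukemia array 2 and at 4.94 to 5.41 on the other 11 arrays.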
